A study of Mus musculus with 8 samples.

Results

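The baseline transcriptome of gamma delta (γδ) T cells of visceral fat was described from 4 polyA RNA libraries of sorted cells, out of 8 in the series. The donors were C57BL/6 mice fed control chow. The 4 libraries, called chow replicates 1 to 4, were chosen by their titles and their control label, and all 47729 genes of the deposited tables were considered. Feeding lasted 1 week, per the series' design text. The labels name no transgene, deletion or drug and no age. They do not say whether a library came from 1 mouse or from a pool, so the spread between libraries may be partly technical. The other 4 libraries, from mice on a ketogenic diet, were not used for any value below. With 1 group of samples there is no contrast and no test. The values are levels, their order and their spread.

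γδ T cells carry a T cell receptor made of a γ and a δ chain instead of the α and β chains of conventional T cells. Those that settle in mouse fat are mostly innate-like cells that leave the thymus already programmed, stay in the tissue for long periods and can secrete interleukin 17 (IL-17) within hours of stimulation. They are known in mouse fat for supporting regulatory T cells, nerve growth and heat production through IL-17A and related factors. Their programme rests on the transcription factors SOX13, c-MAF and PLZF (Zbtb16), and on receptors for IL-7, IL-23 and IL-1.

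Library totals were 23940838, 26162990, 31926441 and 30918609 estimated counts in chow replicates 1, 2, 3 and 4. All levels below are the authors' deposited FPKM values, which scale fragment counts by gene length and library size and so can be compared between genes. Single values stand in the order of chow replicates 1, 2, 3 and 4, and means are given ± SD (n = 4 libraries). Of the 47729 genes listed, 20341 had a count, and 10326 reached 1 FPKM in all 4 libraries and are called expressed. Among protein-coding genes 9419 of 22048 were expressed, which is 42.7%, and the median over all protein-coding genes was 0.488 FPKM. Pearson's r of log2(FPKM + 1) across expressed genes, which are not independent replicates, ran from 0.964 for replicates 1 and 2 to 0.980 for replicates 3 and 4. The 100 highest genes held 29.3% ± 0.389 of all FPKM. A count of 0 over all 4 libraries allows a level of up to 0.0266 CPM (counts scaled to library size; 3 counts of the summed total, counting error only).

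The cells carried the receptor their label names. The γ chain constant gene Tcrg-C1 (chr13:19214103-19217024 on GRCm38, plus strand) ranked 21 among all genes, with 2555, 2417, 2384 and 2415 FPKM. The δ constant gene Trdc (chr14:54142851-54148868, plus strand) had 1083, 1064, 1093 and 1060.0 FPKM, and its CV (SD divided by mean) was 1.46%. Neither gene had a library that stood apart. Trdc shares 207 exonic bases with Trdv5, strand not considered. Whether reads of that part were told apart is not known, since the strand setting is not given. The CD3 chains, which carry the receptor's signal into the cell, had 1929 ± 129.9 FPKM for Cd3g, which was above Trdc in all 4 libraries, 936 ± 135 FPKM for Cd3e, 395 ± 23.1 FPKM for Cd247 and 349 ± 12.9 FPKM for Cd3d. Receptor and CD3 genes had 17 of 19 members expressed, with a median of 349 FPKM.

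One γ and one δ variable segment dominated among the segments counted. Tcrg-V6, the segment of the γ chain that marks the main IL-17 producing γδ population of mouse tissues, had 1293, 1280.5, 1283 and 1211 FPKM and held 72.3% ± 3.84 of the FPKM summed over 6 γ variable segments. Trdv4, the δ segment that pairs with it in those cells and is named Vδ1 in an older nomenclature, had 2268, 2170.3, 2332 and 2363 FPKM and held 92.3% ± 1.09 of the sum over 16 δ segments. Tcrg-V6 was lowest in replicate 4 and Trdv4 was lowest in replicate 2, and in both genes the libraries lay close together. Trgv2 came after Tcrg-V6 with 15.5% ± 1.29 of the γ sum, and their ranges did not overlap. Tcrg-V5 and Tcrg-V4 held 6.14% ± 2.47 and 5.69% ± 0.595, and their ranges overlapped: Tcrg-V5 was the uneven one, with 79.3, 131, 62.8 and 162 FPKM. Tcrg-V7, the segment of intestinal γδ T cells, was not expressed by the rule above, at 1.10 ± 0.422 FPKM. Among the constant genes Tcrg-C1 held 68.5% ± 1.95, Tcrg-C2 18.6% ± 1.58 and Tcrg-C4 12.7% ± 0.497 of the γ sum. The sources used here do not say how reads across a rearranged junction were counted, so shares compare segments only as the tables list them. The 6 γ variable segments were Tcrg-V6, Trgv2, Tcrg-V5, Tcrg-V4, Tcrg-V3 and Tcrg-V7. Tcrg-V1 was not among them, so the γ variable shares cover this set and not the whole repertoire.

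The dominant segments are shown to their 3′ ends, since the rearranged receptor reads on from there. Each line gives the last 300 bases of the segment's GENCODE M21 transcript on GRCm38, 5′ to 3′, and capitals mark the stretch from the conserved cysteine codon to the end of the segment, where joining begins. Tcrg-V6 lies at chr13:19190356-19190929 and Trdv4 at chr14:54074905-54075515, both on the plus strand. Compared over 280 bases, Tcrg-V6 was 49.7% to 54.9% identical to Trgv2, Tcrg-V4, Tcrg-V5 and Tcrg-V7.
Tcrg-V6: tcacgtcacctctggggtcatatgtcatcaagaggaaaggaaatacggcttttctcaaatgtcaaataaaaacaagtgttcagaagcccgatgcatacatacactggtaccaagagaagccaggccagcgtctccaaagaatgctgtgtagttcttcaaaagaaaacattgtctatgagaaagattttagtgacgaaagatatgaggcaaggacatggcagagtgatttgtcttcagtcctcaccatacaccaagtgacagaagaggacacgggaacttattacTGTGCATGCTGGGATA
Trdv4: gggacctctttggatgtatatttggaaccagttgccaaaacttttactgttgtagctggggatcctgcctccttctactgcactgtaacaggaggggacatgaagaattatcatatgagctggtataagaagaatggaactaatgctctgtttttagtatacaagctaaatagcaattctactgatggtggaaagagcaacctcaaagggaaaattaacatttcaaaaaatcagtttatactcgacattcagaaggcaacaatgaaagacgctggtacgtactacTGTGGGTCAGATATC

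Transcripts of α and β receptor genes were also present. The β constant gene Trbc2 had 801, 739.7, 742 and 727 FPKM and Trbc1 had 583, 453, 393 and 487 FPKM, while the α constant gene Trac had 95.9, 115, 67.5 and 108 FPKM. Trdc was 11.6 ± 3.17 times Trac and higher in all 4 libraries. The 35 β variable segments summed to 189.6 FPKM ± 42.1 with no dominant member, the highest being Trbv14 with 11.0% ± 4.91 of that sum. Of 118 α segments 6 were expressed, and Trav15n-1 held 73.5% ± 5.10 of their 135.2 FPKM. It belongs to the segment family shared with δ chains, so its estimated counts are uncertain. The list of αβ T cell markers, which holds these constant genes, had 4 of 8 members expressed and summed to 1536, 1356, 1255 and 1399 FPKM. Cd4 had no count in any library and Cd8a had 28 counts in all. The source of the α and β transcripts was not tested.

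**Figure D1:**
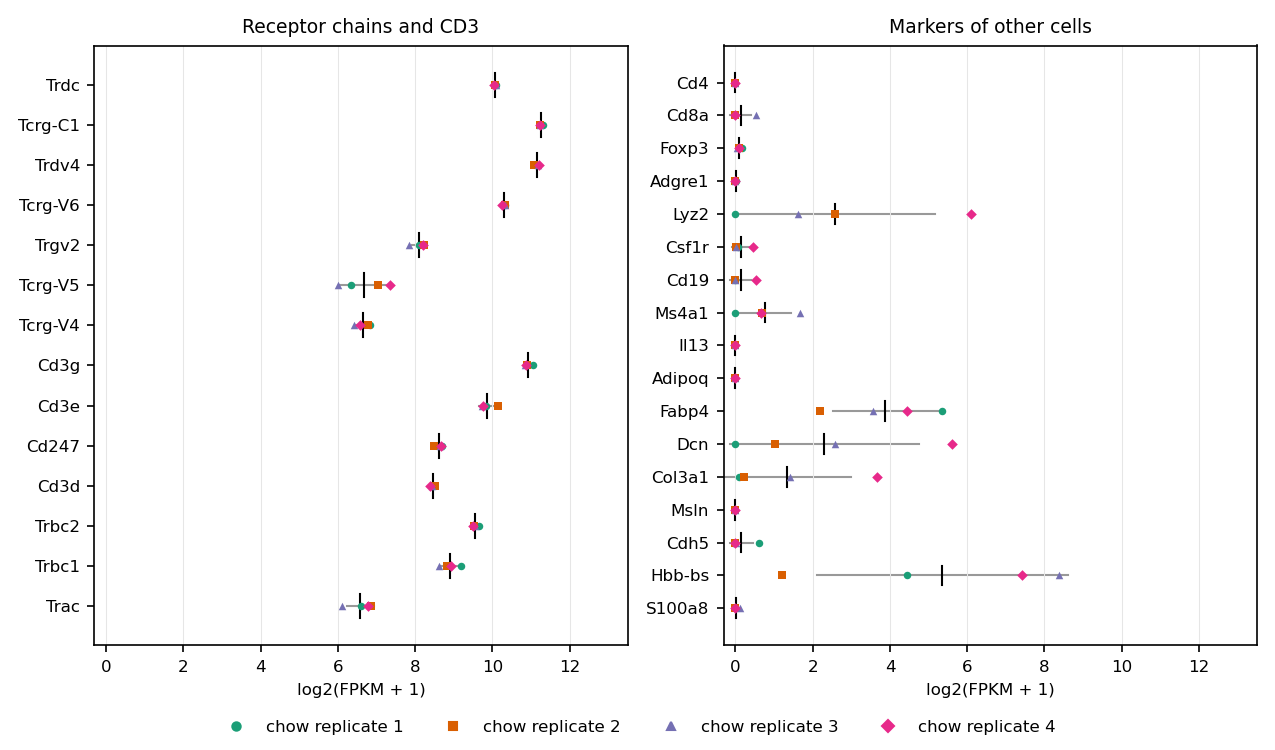
Receptor chains and CD3 (left) and markers of other cells (right), as log2(FPKM + 1) in each of the 4 chow libraries (coloured symbols), with the mean of the log2 values (black tick) and ± 1 SD (grey line). Trdc, Tcrg-C1, Trdv4, Tcrg-V6, Cd3g and Cd3e are the highest genes on the left. On the right, Cd4, Msln and Adipoq sit at 0, and Lyz2, Dcn, Fabp4 and Hbb-bs spread widely between libraries.

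Markers of other cell types differed in level and evenness. In bulk samples, fewer cells of a type and less RNA per cell cannot be told apart. Of 106 such markers, the αβ T cell list included, 25 were expressed (23.6%, against 42.7% of all protein-coding genes). Their median of 0.514 FPKM was near the 0.488 FPKM of all protein-coding genes. Macrophage and monocyte markers had 1 of 15 expressed. Their summed level was 37.2, 35.8, 27.0 and 95.4 FPKM, and Lyz2, which encodes lysozyme, made up most of the high value of replicate 4, with 0, 5.01, 2.08 and 67.7 FPKM, while the defining macrophage gene Adgre1 had 1 count. Stromal and mesothelial markers had 0 of 20 expressed, and their sum was 6.56, 5.61, 9.08 and 77.3 FPKM, with Dcn, the matrix protein decorin, at 0, 1.02, 5.01 and 47.6 FPKM and Msln at 0 counts. Endothelial markers had 2 of 12 expressed and summed to 54.4, 21.2, 19.4 and 20.1 FPKM, and adipocyte markers had 2 of 9 expressed and summed to 44.98, 6.73, 13.03 and 31.92 FPKM with Adipoq and Lep at 0 counts. By summed level, replicate 4 was thus the highest library for macrophage and stromal markers, and replicate 1 for endothelial and adipocyte markers. The macrophage call rested on Lyz2 and the adipocyte call on Fabp4, and other members were divided. Ctss and Cd68 were highest in replicate 1 and Itgam in replicate 4. Pparg and Lpl were highest in replicate 4 and Cfd in replicate 1.

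Dendritic cell markers had 4 of 10 expressed and summed to 45.7, 118.6, 55.3 and 168.7 FPKM, with Clec9a at 0 counts. Its largest members were Cd74, the invariant chain of MHC class II, with 24.9, 64.8, 25.5 and 91.01 FPKM, and the class II gene H2-Ab1, with 10.2, 30.6, 10.5 and 35.1 FPKM, both higher in replicates 2 and 4. B cell markers had 3 of 9 expressed and an even sum of 115.4 to 141.5 FPKM, with Pax5 at 1 count. Most of the sum was Ighm, the constant gene of IgM, at 90.3 ± 13.1 FPKM. Single members were less even than the sum: Ighm and Igkc were lowest in replicate 1, where Cd79b was highest. NK cell and innate lymphoid markers had 6 of 10 expressed and an even sum of 298.4 to 347.0 FPKM, but they include Tyrobp (124 ± 15.5 FPKM), Klrb1c and Ncr1, which γδ T cells can express themselves. Il13 had 0 counts and Eomes, a factor of NK cells, 1.23 ± 0.642 FPKM. Neutrophil genes S100a9 and Ly6g had no count, whereas haemoglobin made the list of neutrophil, mast cell and erythroid markers the most uneven, with sums of 77.7, 9.88, 1073 and 515.1 FPKM.

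Surface receptors were broadly transcribed. Of 182 surface genes on 7 lists 139 were expressed (76.4%, against 42.7% of all protein-coding genes), the median was 21.5 FPKM, 51 reached 100 FPKM and 13 had no count. The lists were drawn up for this cell type, so a share above the background is a property of the choice as well.

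Among chemokine receptors, which guide cells into and within tissues, 13 of 20 were expressed and the order of the first 3 was clear. Cxcr6, a receptor of tissue-resident T cells, had 2042, 1845, 1690.0 and 1865 FPKM and ranked 33 among all genes. Ccr2, which guides cells to inflamed tissue and marks IL-17 producing γδ T cells, had 502, 479, 499 and 529 FPKM. Cxcr3, a receptor of T-bet driven cells, had 249.8, 275, 227 and 294 FPKM. The libraries of these 3 genes did not overlap, and Cxcr6 was 3.71 ± 0.309 times Ccr2. Cxcr4 (35.1 ± 3.26 FPKM), Ccr4 (30.7 ± 8.68 FPKM) and Ccrl2 (25.7 ± 4.42 FPKM) formed an overlapping group well below. Ccr6, another receptor of IL-17 producing cells, had only 18.7, 19.1, 13.2 and 14.4 FPKM, and Ccr2 was 31.7 ± 6.57 times higher. Ccr3 and Cxcr1 had no count.

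Receptor chains for interferon gamma, IL-2, IL-15 and IL-7 led the cytokine receptors. Ifngr1, the ligand-binding chain of the interferon gamma receptor, had 1504, 1647, 1669 and 1806 FPKM, and its partner Ifngr2 had 144 ± 13.3 FPKM, so Ifngr1 was 11.5 ± 0.512 times its partner. Il2rg, the common γ chain shared by the receptors of IL-2, IL-7, IL-15 and others, had 1199, 1204, 1197 and 1205 FPKM. Its CV in FPKM, 0.321%, was the smallest of all expressed protein-coding genes of at least 10 FPKM. Il2rb, the signalling chain for IL-2 and IL-15, had 504 ± 51.1 FPKM and was 1.90 ± 0.101 times Il7r, the IL-7 receptor, at 266 ± 20.4 FPKM. The libraries of Ifngr1, Il2rg, Il2rb and Il7r did not overlap in that order, and Il27ra, which binds the restraining cytokine IL-27, came next with 173 ± 20.2 FPKM.

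The receptors of the IL-17 programme stood lower. Il23r, for IL-23, had 96.1, 89.5, 119 and 101 FPKM, and Il12rb1, the chain that IL-23 and IL-12 receptors share, had 107 ± 4.88 FPKM. Il12rb2, the chain only the IL-12 receptor uses, had 5.39 ± 1.05 FPKM, so Il23r was 19.3 ± 4.37 times higher. Il18r1, for IL-18, had 50.5, 60.2, 50.4 and 49.5 FPKM, and Il1r1, for IL-1, had 26.4, 37.1, 32.01 and 31.3 FPKM. Il18r1 was above Il1r1 in all 4 libraries, and replicate 2 was the highest for both. Il2ra, the high-affinity chain of the IL-2 receptor, had 105 ± 4.83 FPKM. In all, 26 of 38 cytokine receptors were expressed, with a median of 32.6 FPKM, and Il1r2, Il22ra1 and Il9r had no count.

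Costimulatory, checkpoint and TNF receptor genes had 27 of 32 expressed, with a median of 40.6 FPKM. Cd82, a tetraspanin of activated T cells, led with 829.6 ± 64.8 FPKM. The costimulator Icos had 408, 379, 423 and 488 FPKM, the activation and retention marker Cd69 had 425, 399.8, 346 and 393 FPKM, and the inhibitory receptor Pdcd1 (PD-1) had 401, 307, 339 and 383 FPKM. Icos and Cd69 could not be ordered, and Pdcd1 was below both in each library although the ranges overlapped. Cd48, a ligand of CD2, had 305 ± 30.4 FPKM and overlapped with Pdcd1. Checkpoint genes did not go together: Tigit had 3.06 ± 0.307 FPKM, so Pdcd1 was 118.0 ± 19.0 times higher, and Lag3 had 3 counts in all. Cd44, a marker of activated and memory T cells, had 170.1, 163, 181 and 178 FPKM, against 38.3, 38.5, 37.8 and 48.3 FPKM for Cd27, which in mouse γδ T cells marks the interferon gamma producing branch. Cd44 was 4.29 ± 0.467 times Cd27, and replicate 4 was the highest library for Cd27 by a gap from the other 3.

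Adhesion genes had 21 of 26 expressed. Selplg, the P-selectin ligand used to enter tissues, had 1484 ± 84.5 FPKM, Itgb7, the integrin β7 chain, 1012, 979.9, 944 and 965 FPKM, and Ly6c2 698 ± 82.5 FPKM. The αL and β2 chains of the integrin LFA-1 had 225 ± 12.3 FPKM (Itgal) and 318 ± 18.9 FPKM (Itgb2), and Ly6a (Sca-1) had 192 ± 16.3 FPKM. The αE chain that pairs with β7 to form CD103, Itgae, had only 3.81, 2.34, 4.38 and 3.46 FPKM, and Itgb7 was 295 ± 87.1 times higher. Receptors of NK type and the scavenger receptor family had 13 of 15 expressed. Cd163l1, which encodes the scavenger receptor SCART1 of mouse γδ T cells, had 939, 784, 838 and 882 FPKM and ranked 93 among all genes. The activating receptor Klrk1 (NKG2D) had 238 ± 17.5 FPKM and the inhibitory Klrc1 (NKG2A) 132 ± 7.58 FPKM, with no overlap between them. Klrb1c (NK1.1), Ncr1 (NKp46) and Klrd1 (CD94) followed at 66.5 ± 9.24 FPKM, 64.4 ± 3.07 FPKM and 53.6 ± 8.57 FPKM, and neighbours in that order overlapped. The macrophage scavenger genes Cd5l and Msr1 had no count.

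Receptors for lipids, hormones and nerve signals had 22 of 32 expressed, with a lower median of 7.92 FPKM. Gpr183, which senses oxysterols and positions lymphocytes, had 329, 335, 340.1 and 356 FPKM. The receptor activity-modifying proteins Ramp1 and Ramp3, which combine with calcitonin-type receptors to bind neuropeptides such as CGRP and adrenomedullin, had 286, 245, 240.1 and 254 FPKM and 151, 154, 219 and 199 FPKM. Gpr183, Ramp1 and Ramp3 did not overlap with one another. Their shared partner receptor Calcrl was far lower, at 6.54 ± 2.14 FPKM. P2ry10, a lysophospholipid receptor, had 160.2 ± 27.4 FPKM, the glucocorticoid receptor Nr3c1 106 ± 8.17 FPKM, and S1pr1, which draws lymphocytes out of tissues, 45.5, 48.2, 44.7 and 41.6 FPKM. The β3 adrenergic receptor of fat cells, Adrb3, the leptin receptor Lepr, the fatty acid receptor Ffar4, the ketone body receptor Hcar2 and the neuropeptide receptor Vipr2 had no count.

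**Figure D2:**
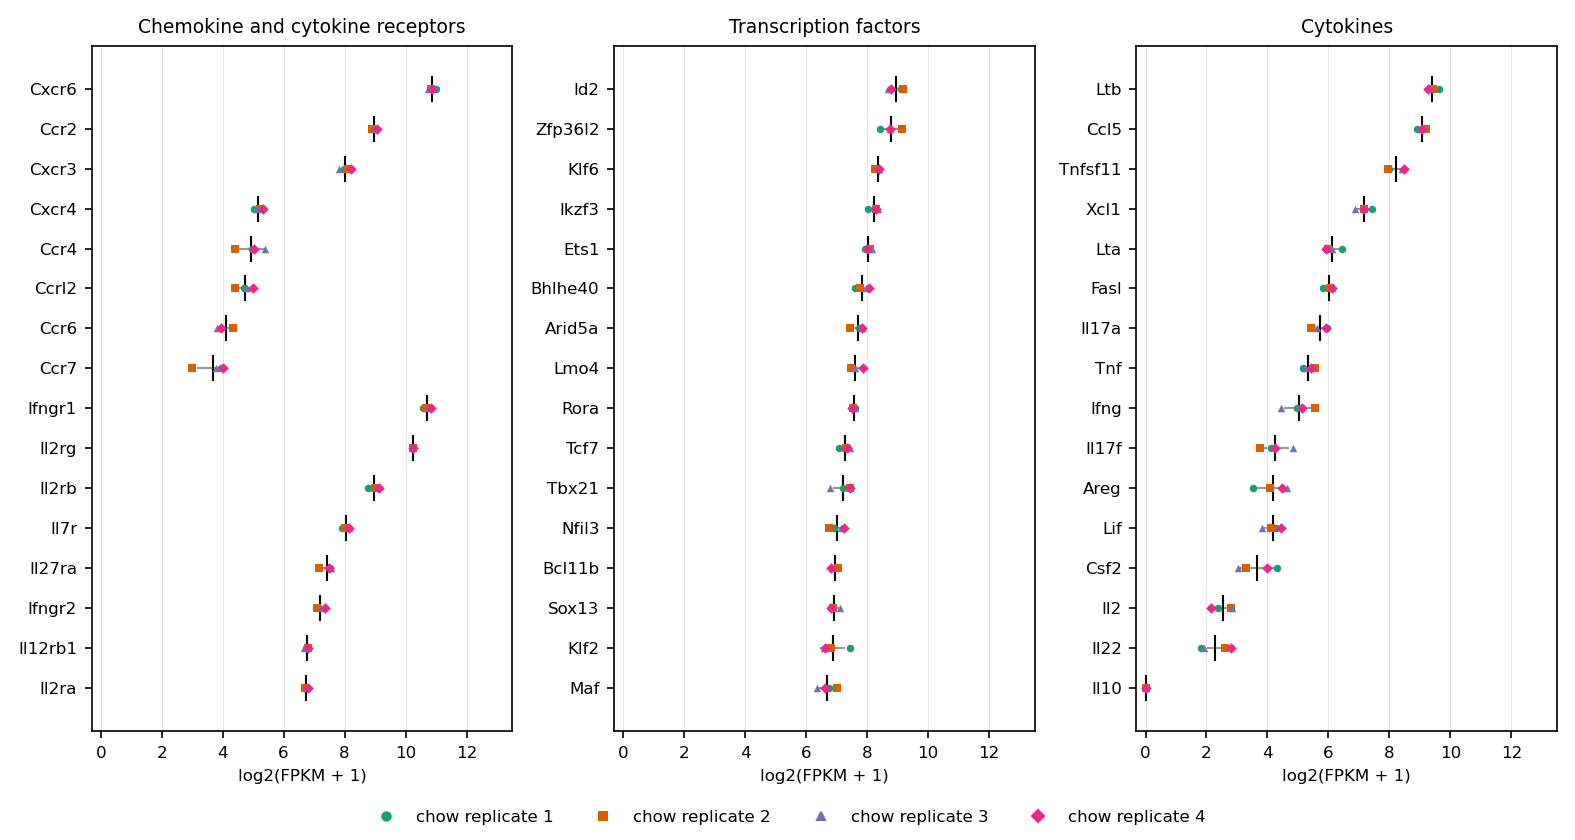
Chemokine and cytokine receptors (left), transcription factors of the type 17 and innate T cell list (middle) and selected cytokines (right), as log2(FPKM + 1) in each of the 4 chow libraries, with the mean of the log2 values (black tick) and ± 1 SD (grey line). Cxcr6, Ifngr1 and Il2rg stand above 1000 FPKM, factors decline gradually from Id2, and Il17a, Tnf and Ifng lie near each other, far below Ltb.

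The 4 transcription factor lists had 94 of 110 genes expressed (85.5%, against 42.7% of all protein-coding genes), with a median of 39.7 FPKM. They also hold regulators that are not transcription factors, such as Dusp1, Zfp36l2, Nfkbia and Tnfaip3. As for the surface lists, the share is a property of the choice as well. Factors of type 17 and innate T cells had 41 of 51 expressed. The regulators that led this list are ones T cells share broadly: Id2, an inhibitor of E proteins, had 552, 586, 408 and 444 FPKM, the RNA-binding regulator Zfp36l2 340.2, 571, 435 and 434 FPKM, Klf6 326 ± 13.4 FPKM, Ikzf3 (Aiolos) 303 ± 30.1 FPKM, Ets1 264 ± 18.9 FPKM and Bhlhe40 232 ± 32.3 FPKM. Id2 and Zfp36l2 overlapped and were uneven in different libraries, Id2 being lowest in replicate 3 and Zfp36l2 in replicate 1.

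The factors that define IL-17 producing γδ T cells lay below these. Rora, the RORα gene, had 194, 187, 192 and 179 FPKM, even between libraries. Sox13 had 113, 118, 136 and 113 FPKM, Maf 108, 128, 81.8 and 97.6 FPKM and Zbtb16 14.1, 14.2, 16.7 and 12.4 FPKM. Sox13 and Maf overlapped, and Zbtb16 was well below both in every library. Tbx21, encoding T-bet, the factor of interferon gamma producing cells, had 146, 174, 109.7 and 171 FPKM. Replicate 3 was the lowest library for Tbx21 and for Maf. Eomes, the other T-box factor of cytotoxic cells, was at 1.23 ± 0.642 FPKM, below 1 FPKM in replicate 1. Foxp3, the factor of regulatory T cells, had 28 counts in all.

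Early response genes had the highest median of the 4 factor lists, 67.2 FPKM, and 22 of 23 were expressed. Junb, an AP-1 subunit, had 2734, 2432, 2591 and 2710.1 FPKM and ranked 16 among all genes, although it shares 173 exonic bases with Prdx2. The phosphatase Dusp1 had 1249.5, 1180.5, 991 and 1217 FPKM, Btg2, which restrains proliferation, 771 ± 66.8 FPKM, Ier2 578 ± 36.5 FPKM and Fos 662, 611, 464 and 556 FPKM. Nr4a1, which antigen receptor signals switch on, had 473, 465, 492 and 561 FPKM. The 4 libraries of Junb, Dusp1 and Btg2 each stayed clear of the next gene, whereas Ier2, Fos and Nr4a1 overlapped. Such genes are known to respond to tissue digestion and sorting as well as to stimuli in the animal, and their induction by handling was not tested.

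All 12 NF-κB genes were expressed, with a median of 48.3 FPKM. Of the inhibitors, Nfkbia (IκBα) had 426, 425, 399 and 469 FPKM and Tnfaip3 (A20) 369.8, 418, 421 and 439.6 FPKM, against 72.4 ± 6.00 FPKM for Rela and 62.3 ± 3.18 FPKM for Nfkb1. Nfkbid, an atypical IκB, lay between at 140.3 ± 26.4 FPKM, and the inhibitor Nfkbib (IκBβ) had 59.6 ± 3.80 FPKM and overlapped with Nfkb1. Nfkbia and Tnfaip3 overlapped, whereas Tnfaip3, Nfkbid, Rela and Nfkb1 were clear of each other in that order. Nuclear receptors and metabolic factors had 21 of 26 expressed, with a lower median of 24.8 FPKM. The glucocorticoid receptor was the only member above 100 FPKM, followed by the stress factor Atf4 (74.1 ± 5.65 FPKM), Rara (73.5 ± 6.08 FPKM), the oxysterol receptor Nr1h2 (LXRβ, 71.4 ± 6.87 FPKM), Srebf1 (54.2 ± 12.9 FPKM) and the clock repressor Nr1d1 (51.2 ± 3.63 FPKM). Ppara, the fasting-induced receptor of liver, and the carbohydrate factor Mlxipl had no count.

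Cytokine genes had 44 of 102 expressed (43.1%, near the 42.7% of all protein-coding genes), with a median of 1.73 FPKM. Of the IL-17 programme 4 of 9 members were expressed. Il17a (chr1:20730905-20734496, plus strand), whose product acts on stromal and fat cells, had 61.05, 41.7, 48.1 and 59.05 FPKM, from 6481 counts in all. Its neighbour on chromosome 1, Il17f, had 16.3, 12.5, 27.7 and 17.9 FPKM, and Il22, an epithelial repair cytokine, 2.54, 5.10, 2.79 and 5.99 FPKM. Il17a was above Il17f in all 4 libraries, by 3.03 ± 0.885 times, but the rank of libraries differed: Il17a was highest in replicate 1 and Il17f in replicate 3. Csf2 (GM-CSF) had 19.01, 8.85, 7.26 and 14.8 FPKM, so its 2 higher libraries were replicates 1 and 4, as for Il17a. Il17b, Il17c, Il21 and Il23a had no count.

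Type 1 cytokines and cytotoxic genes had 13 of 16 expressed, with a median of 52.3 FPKM. Ltb, the lymphotoxin β chain, had 793, 684, 641 and 615 FPKM, and the chemokine Ccl5 479.8, 590.0, 529.5 and 536 FPKM. Nkg7, a gene of cytotoxic granules, had 442 ± 40.8 FPKM, and Xcl1, which attracts cross-presenting dendritic cells, 144 ± 22.01 FPKM. Ltb, Ccl5 and Nkg7 did not overlap with one another. Ifng had 30.2, 45.95, 20.8 and 34.2 FPKM. Il17a was above Ifng in 3 of 4 libraries and below it in replicate 2, so the levels of these 2 cytokines could not be ordered. Tnf had 35.1, 46.04, 36.2 and 42.1 FPKM and Lta, lymphotoxin α, 69.5 ± 12.1 FPKM. Ccl4, a chemokine, was uneven, with 34.99, 149, 32.3 and 98.2 FPKM, high in replicates 2 and 4, the libraries that were also high for Cd74.

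Among ligands of the TNF superfamily Tnfsf11 (RANKL), known for driving osteoclasts and lymphoid tissue formation, had 255, 245, 341 and 359.5 FPKM. It was 7.63 ± 1.78 times Tnf, and replicates 3 and 4 were above replicates 1 and 2. Cd40lg had 57.2 ± 12.7 FPKM and Tnfsf14 (LIGHT) 21.6 ± 3.67 FPKM, and 5 of 12 ligands were expressed. Of 18 other chemokines 3 were expressed: Cxcl10 had 93.3, 47.1, 102 and 86.01 FPKM, lower in replicate 2 than in the others, Cklf 76.8 ± 4.54 FPKM and Cxcl2 9.79 ± 2.30 FPKM. Other interleukins had 2 of 19 expressed. Il16 had 61.5 ± 4.65 FPKM, but shares 1084 exonic bases with Stard5, and Il2 had 4.95 ± 1.32 FPKM. Il10, Il12a, Il12b, Il13, Il3, Il34 and Il9 had no count.

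Factors of repair and growth had 17 of 28 expressed. Lgals1 (galectin 1), a lectin that dampens T cell responses, had 2075, 1735, 1844 and 1665 FPKM, Hmgb1 686 ± 5.13 FPKM and Mif 282 ± 26.4 FPKM, with no overlap. Tgfb1 had 65.2, 96.4, 73.4 and 61.5 FPKM, highest in replicate 2. Areg, the epidermal growth factor family member of tissue repair, had 10.5, 15.8, 24.04 and 21.1 FPKM, and Lif, a relative of IL-6, 18.5, 16.2, 13.03 and 20.99 FPKM. Areg and Lif overlapped and each was higher in 2 libraries, and Tgfb1 was 4.57 ± 1.83 times Areg. Metrnl, a hormone-like factor known for promoting thermogenic fat in mice, had 46.1 ± 8.27 FPKM, and the growth factor precursor Grn 62.6 ± 2.35 FPKM.

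Metabolic genes had 212 of 247 expressed (85.8%, against 42.7% of all protein-coding genes), with a median of 48.5 FPKM and a median CV of 12.02% among the expressed. The plot of metabolic lists shows their order.

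**Figure D3:**
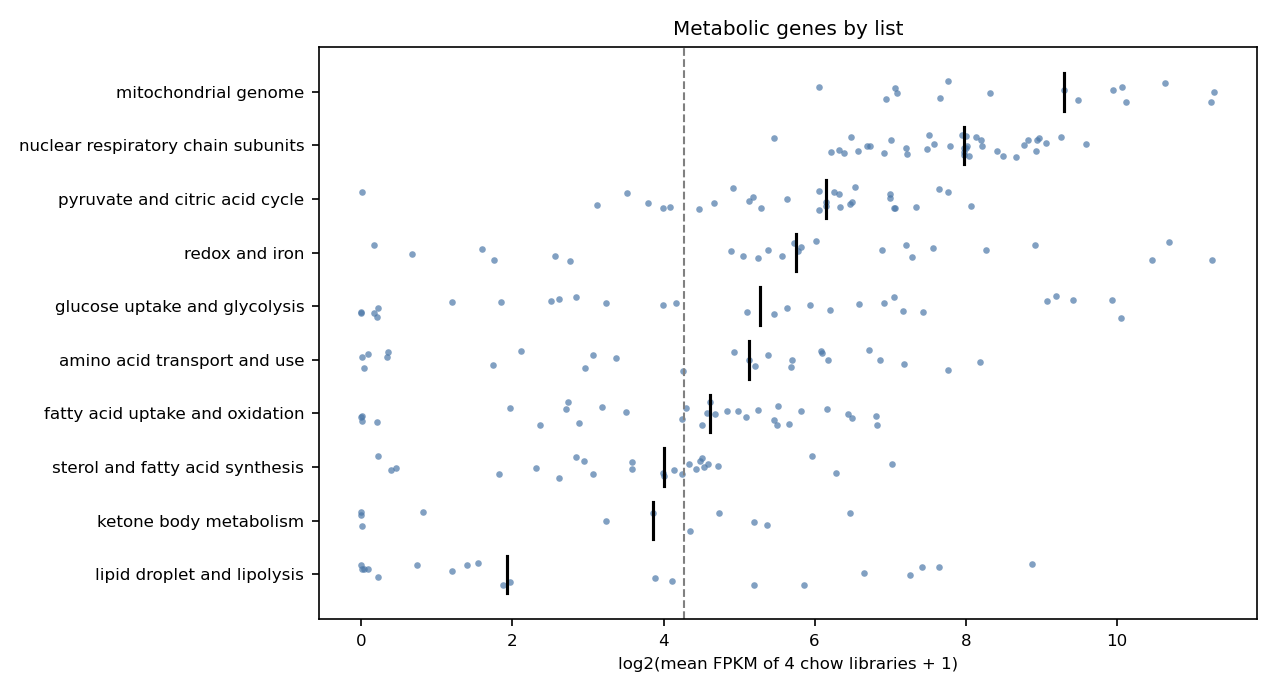
Mean level of every member of 10 metabolic gene lists over the 4 chow libraries, as log2(mean FPKM + 1), 1 point per gene (vertical jitter only), with the list median as a black tick. The dashed line marks the median of expressed protein-coding genes, 18.2 FPKM; the mitochondrial genome (median 630.6 FPKM) and nuclear respiratory chain subunits (251.8 FPKM) lie to its right, and lipid droplet and lipolysis genes (2.79 FPKM) have their median to its left.

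All 38 nuclear subunits of the respiratory chain were expressed, with a median CV of 7.98%. Atp5b, the catalytic β subunit of ATP synthase, had 782, 756, 763 and 778 FPKM, Cox6a1 611 ± 48.7 FPKM, Cox4i1 536 ± 50.99 FPKM and Atp5h 501 ± 13.7 FPKM. Only Atp5b stayed clear of its neighbour in this order. The lowest subunit was the complex I gene Ndufs1 with 43.3 ± 3.19 FPKM. Transcripts of the mitochondrial genome had mt-Co3 at 2827, 2440.2, 2617 and 2130.1 FPKM and mt-Atp6 at 2981, 2496, 2076 and 2164 FPKM, and the mitochondrial genome held 1.88% ± 0.188 of all FPKM. Its summed level was highest in replicate 1 with 14157 FPKM and lowest in replicate 4 with 10639 FPKM, and the median CV of its genes was 12.4%.

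Glycolysis had 22 of 28 genes expressed, with a median of 38.1 FPKM. Eno1 (enolase) had 1033, 1031, 1079 and 1103 FPKM, Ldha (lactate dehydrogenase A) 1037, 872, 1015 and 971 FPKM, Aldoa (aldolase A) 754, 659, 656 and 666 FPKM, Pkm (pyruvate kinase) 584 ± 26.2 FPKM and Gapdh 539.8 ± 53.7 FPKM. Eno1 and Ldha overlapped narrowly, and both were above Aldoa in all 4 libraries. Isoforms were unequal. Ldha was 61.0 ± 15.98 times Ldhb, the form that favours pyruvate, Hk1 was 4.95 ± 0.787 times Hk2, and the glucose transporter Slc2a3 was 1.86 ± 0.317 times Slc2a1, with no overlap in any of these pairs. The neuronal enolase Eno2 had no count.

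The citric acid cycle list had 30 of 31 genes expressed, at a median of 70.1 FPKM and with a median CV of 10.4%. Mdh2 and Mdh1, the malate dehydrogenases of mitochondria and cytosol, had 268 ± 7.78 FPKM and 217 ± 10.4 FPKM, and the pyruvate carrier subunits Mpc1 and Mpc2 had 199.7 ± 7.67 FPKM and 131 ± 12.2 FPKM. Sdha, a subunit of succinate dehydrogenase, had 162 ± 16.3 FPKM and Sdhb 133 ± 5.58 FPKM. Cs, citrate synthase, had 87.4 ± 3.90 FPKM, so Eno1 was 12.2 ± 0.382 times Cs. Pdk4, the pyruvate dehydrogenase kinase of fasting, had 2 counts in all.

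Fatty acid oxidation had 27 of 31 genes expressed at a median of 23.6 FPKM. The mitochondrial enzymes led: Hadhb, a subunit of the trifunctional protein, had 119, 112, 106 and 114 FPKM, Etfb 112 ± 11.4 FPKM, Acadvl, the dehydrogenase of very long chains, 89.4 ± 8.94 FPKM, and Acsl5, an acyl-CoA synthetase, 70.9 ± 9.03 FPKM. Cpt1a, the carnitine transferase that admits long chains to mitochondria, had 16.4, 14.4, 16.4 and 24.2 FPKM, which was 0.198 ± 0.0329 times Acadvl, and replicate 4 was its highest library. The fat cell lipid chaperone Fabp4 had 39.8, 3.54, 10.8 and 20.6 FPKM, with replicate 1 highest. That library also had the highest endothelial sum and the highest adipocyte sum, of which Fabp4 is the main part. The adipocyte markers Pparg and Lpl were highest in replicate 4 instead, and Cfd in replicate 1. Without replicate 1 its mean was 11.7 FPKM, against 18.7 ± 15.7 FPKM with it.

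Lipid droplet genes were split. Of 20 genes 10 were expressed, and the leading ones were high: Hilpda, an inhibitor of lipolysis, had 469, 415, 447 and 551 FPKM, and Dgat1, which makes triglyceride, 199 ± 17.5 FPKM. Aqp3, a channel for water and glycerol, had 203, 167, 139.6 and 174 FPKM, and Plin2, the main droplet coat protein outside fat cells, 174, 106, 126 and 202 FPKM. Aqp3 was above Plin2 in 3 of 4 libraries and the genes overlapped, while Hilpda was clear of all others. Plin3 had 99.9 ± 16.2 FPKM and the triglyceride lipase Pnpla2 57.2 ± 9.93 FPKM. The glycerol channel of fat cells, Aqp7, had 1 count and the droplet protein Plin5 had none.

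Sterol and fatty acid synthesis had 22 of 25 genes expressed at a median of 15.1 FPKM. Elovl1 and Elovl5, which lengthen fatty acids, had 129 ± 12.3 FPKM and 76.9 ± 8.50 FPKM, and Fdps, an enzyme of the sterol pathway, 62.7, 46.9, 76.9 and 59.8 FPKM. Cyp51, a later sterol enzyme, had 12.7, 16.4, 38.4 and 24.4 FPKM. Fdps and Cyp51 were each highest in replicate 3, and the summed level of the list was 647.6 FPKM in replicate 3 against 474.9 to 535.0 FPKM in the other libraries. Ketone body genes had 7 of 11 expressed: Acat1 had 87.4 ± 3.76 FPKM, and Oxct1, the enzyme that lets tissues burn ketone bodies, 29.6, 32.2, 46.7 and 53.3 FPKM, although it shares 467 exonic bases with BC037032. Bdh1, Aacs and Acat2 had 25.7 ± 6.67 FPKM, 19.4 ± 3.29 FPKM and 13.48 ± 6.44 FPKM.

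Amino acid genes had 20 of 25 expressed at a median of 34.1 FPKM. Slc3a2, the heavy chain of amino acid exchangers, had 291 ± 20.1 FPKM, the polyamine enzymes Odc1 and Sat1 217 ± 43.9 FPKM and 145 ± 3.88 FPKM, Glud1 115 ± 6.72 FPKM and the glutamine transporter Slc1a5 104 ± 10.96 FPKM. Redox and iron genes had 22 of 24 expressed, and 3 of them were among the 50 highest genes. Fth1, the ferritin heavy chain that stores iron, had 2566, 2270.5, 2478 and 2522 FPKM, Ftl1, its light chain, 1644 ± 48.9 FPKM, and Gpx1, a glutathione peroxidase, 1414 ± 122 FPKM. Prdx1, Gpx4 and Txn1 followed at 482 ± 18.7 FPKM, 308 ± 21.7 FPKM and 189 ± 11.2 FPKM. All neighbours in this order of 6 were clear of each other.

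Tmsb4x, which binds actin monomers, was the highest of all genes with 20045, 20090.0, 19652 and 18998 FPKM. Actin and its regulators recurred among the 20 highest protein-coding genes outside the ribosomal protein and mitochondrial genes, with Pfn1 at 4009 ± 215 FPKM, Actb at 3457 ± 504 FPKM, Tmsb10 at 3277 ± 356 FPKM, Cfl1 at 2892 ± 155 FPKM and Actg1 at 2559.6 ± 237 FPKM. The MHC class I light chain B2m had 7480.3, 7559, 7064 and 7234 FPKM, and the heavy chains H2-D1 and H2-K1 had 5127 ± 234 FPKM and 3511 ± 173 FPKM. The heavy chains are similar in sequence, so their split is uncertain. The calcium-binding proteins S100a6 and S100a11 had 3055 ± 238 FPKM and 2637 ± 115 FPKM, the LIM protein Crip1 3194 ± 362 FPKM, and the surface proteins Ly6e and Cd52 3579.9 ± 119 FPKM and 2587 ± 251 FPKM. Ppia (cyclophilin A), Ubb, Eif1 and Tmem176b had 4446 ± 102 FPKM, 2823 ± 151 FPKM, 2777 ± 198 FPKM and 2402 ± 93.9 FPKM. Tmem176a and Tmem176b, paired membrane proteins, were both in the first 50 genes, with 1468 ± 101 FPKM for Tmem176a, and share 62 exonic bases. Ucp2, a mitochondrial carrier, had 1453, 1357, 1327 and 1393 FPKM and shares 305 exonic bases with Dnajb13. Ribosomal proteins had 81 of 85 genes expressed and held 5.08% ± 0.314 of all FPKM.

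The spread between libraries fell with level. Among expressed genes the median CV was 6.46% for the 76 genes of at least 1000 FPKM, 8.12% for the 1104 genes from 100 to 1000 FPKM, 15.1% for the 5541 genes from 10 to 100 FPKM and 28.8% for the 3605 genes from 1 to 10 FPKM. edgeR's common biological coefficient of variation, which removes counting noise, was 0.289 over 11523 genes. A CV over 50% was found in 458 expressed genes (4.44%), and 415 of them were under 10 FPKM. Replicate 2 was the highest library for 181 of these genes, replicate 1 for 137, replicate 4 for 74 and replicate 3 for 66.

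**Figure D4:**
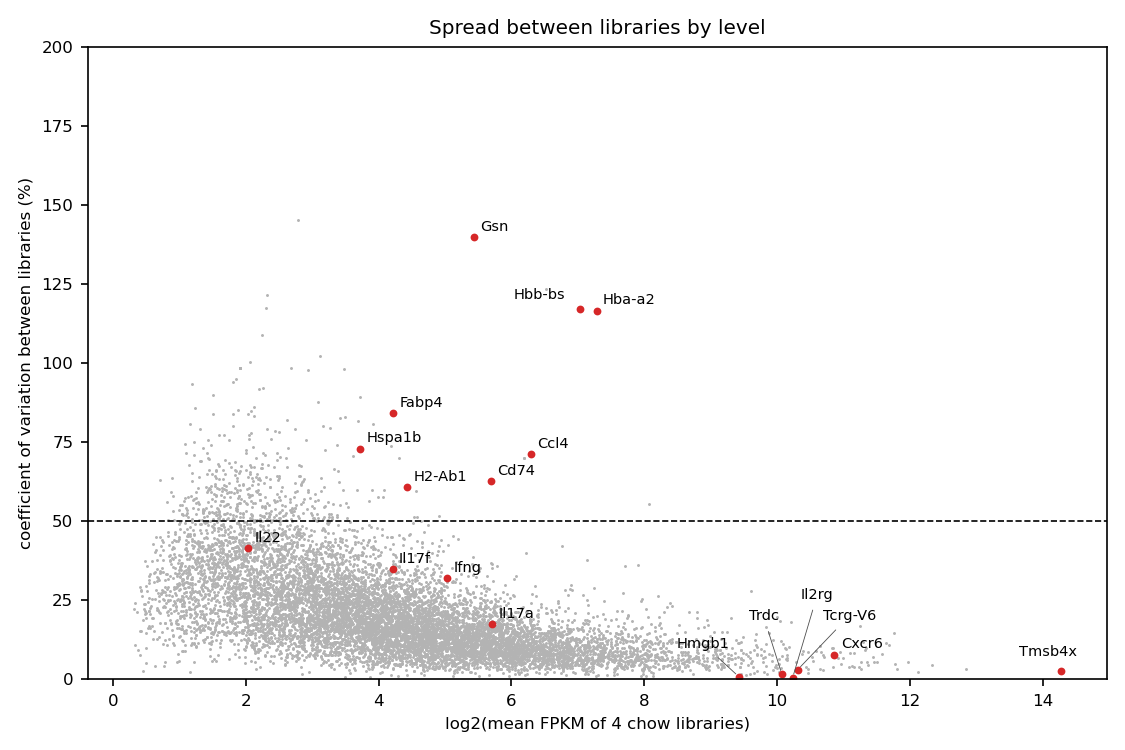
CV between the 4 chow libraries (percent) against log2(mean FPKM), 1 grey point per expressed gene, with named genes in red and the 50% threshold as a dashed line. The points narrow towards the right; Il2rg and Hmgb1 lie at the bottom edge, while Gsn, Hba-a2 and Hbb-bs stand far above genes of similar level.

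After Il2rg, the smallest CVs among protein-coding genes of at least 10 FPKM were 0.747% for Hmgb1, a chromatin protein, 0.756% for Cryba4, 0.809% for Adat3 and 0.833% for Ppp1r15a. With 4 libraries a small CV also arises by sampling among many genes. Summed FPKM itself differed between libraries, at 668934, 648837, 645131 and 640496. CVs this small therefore hold in FPKM only and would change in a unit that equalizes the sums. The 12 largest CVs were led by Gsn and 3 haemoglobin genes. Gsn, the actin-severing protein gelsolin, had 10.3, 6.67, 22.5 and 133 FPKM, and without replicate 4 its mean was 13.2 FPKM, against 43.2 ± 60.4 FPKM with it. Hba-a2 had 25.9, 3.74, 395 and 199 FPKM, Hbb-bs 20.6, 1.29, 329.6 and 171 FPKM and Hba-a1 9.81, 1.93, 246 and 111 FPKM. The haemoglobin genes ran together, high in replicates 3 and 4 and lowest in replicate 2, and without replicate 3 their means were 76.1, 64.3 and 40.9 FPKM. The copies of each haemoglobin gene are near identical, so their split is uncertain.

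Several other uneven genes shared their highest library with a marker list described above. Sparc, a matrix protein, had 12.3, 5.45, 3.33 and 24.1 FPKM, and its mean without replicate 4 was 7.02 FPKM. Like Gsn it was highest in replicate 4, where the stromal marker sum was 77.3 FPKM against 5.61 to 9.08 FPKM in the other libraries. Outside replicate 4 Sparc did not follow that sum, being lowest in replicate 3. Rasl11a and Tsc22d1 were highest in replicate 1, where the endothelial marker sum was highest: Rasl11a had 30.5, 6.97, 10.5 and 4.80 FPKM and Tsc22d1 24.9, 7.87, 5.78 and 10.4 FPKM, with means of 7.43 and 8.03 FPKM without it. Ecm1 had 14.9, 6.96, 37.6 and 13.1 FPKM, with a mean of 11.7 FPKM without replicate 3, and Gm26602, which shares 284 exonic bases with R3hdm4, a mean of 9.65 FPKM without that library. Hspa1b, a heat shock protein induced by stress, had 8.15, 8.09, 9.01 and 27.7 FPKM, with a mean of 8.42 FPKM without replicate 4. The part of other cells or of handling in these differences was not tested.

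**Figure D5:**
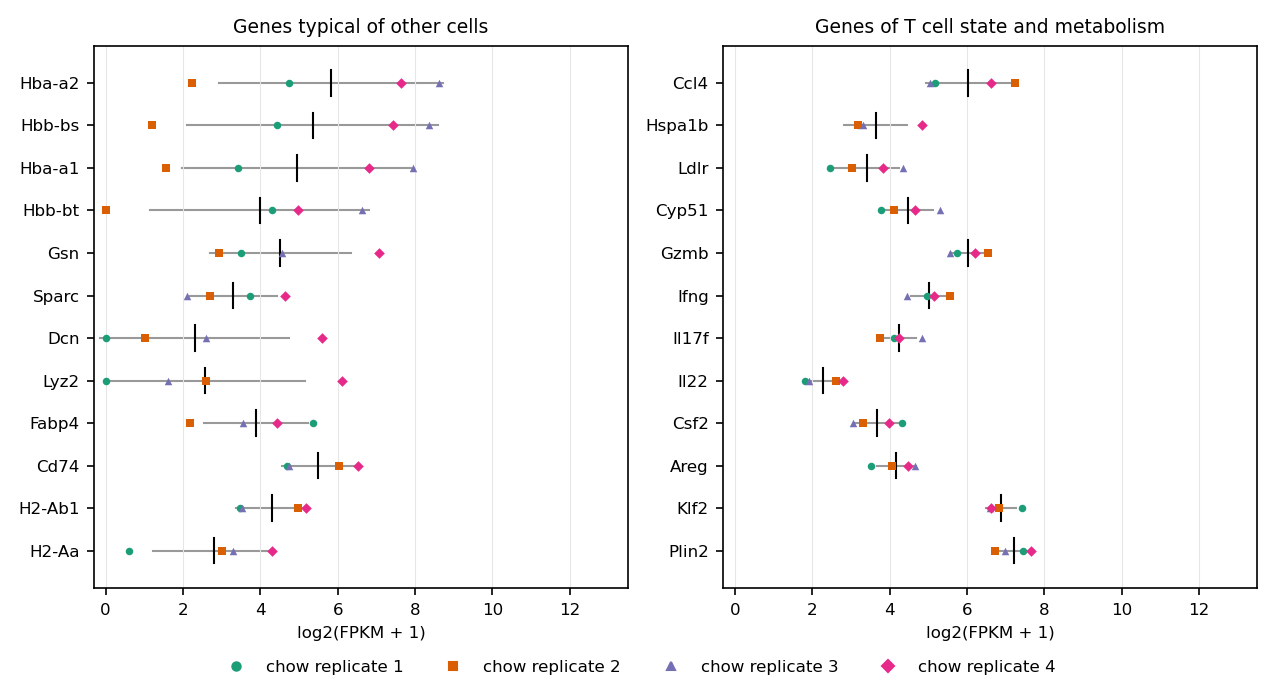
Genes with a large spread that are typical of other cells (left) and genes of T cell state and metabolism (right), as log2(FPKM + 1) in each of the 4 chow libraries, with the mean of the log2 values (black tick) and ± 1 SD (grey line). Haemoglobin genes peak in replicate 3, Gsn, Dcn and Lyz2 in replicate 4, and Ccl4 in replicate 2, while cytokine genes such as Ifng and Il17f spread less.

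Cytokine genes varied without a common highest library. Ifng had a CV of 31.8%, Il17f of 34.8%, Il22 of 41.5% and Csf2 of 43.5%, all above the 15.1% or 28.8% that was the median at their level. Il17a, at 17.5%, and Tnf, at 12.9%, were near it. Replicate 2 was highest for Ifng, replicate 3 for Il17f, replicate 4 for Il22 and replicate 1 for Csf2 and Il17a. Ifng, Il22 and Tnf were nevertheless each higher in replicates 2 and 4 than in replicates 1 and 3, as were Tbx21, Cxcr3 and Ccl4. Il17a, Il17f and Csf2 did not follow that order. Of the type 1 list, Ccl5 followed it too, but Ltb, Nkg7, Xcl1 and Lta did not. The share of all genes with this order was not counted, so it cannot be read as particular to these genes. The source of the shared order was not tested. The receptor and factor genes that define the cells were mixed. CVs were 2.96% for Tcrg-V6, 7.74% for Cxcr6, 7.70% for Il7r, 3.46% for Rora and 9.27% for Sox13. Il23r and Il1r1 lay higher, at 12.41% and 13.93%. Maf, at 18.76%, and Ccr6, at 18.21%, varied slightly more than Il17a. Spread fell with level, and Cxcr6 was above the median CV of 6.46% for genes of at least 1000 FPKM.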

How the data were processed

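PolyA RNA of γδ T cells lysed in RLT buffer was sequenced from Illumina libraries, per the labels. The authors deposited estimated counts per gene and FPKM values. Per the submitters' processing notes the build was GRCm38 and the tools were RSEM, TopHat2, BWA and DESeq2, whose roles and versions they leave out. Strand setting and filters are not given in the sources used here. In each chow library 5318 to 5802 genes had fractional counts, since an estimate shares reads out between similar genes, and near-identical copies are less certain. Columns were mapped to samples by title, and 27 gene symbols that a spreadsheet had turned into dates were restored by Ensembl identifier. No 2 libraries held identical counts.

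Means, SDs, CVs and ranks were computed from FPKM (Python 3.11.15, pandas 2.3.3, numpy 2.4.6). Counts were rounded, filtered with filterByExpr (minimum count 10, minimum total 15), scaled with TMM and used for the common biological coefficient of variation (edgeR 4.0.16, R 4.3.3, intercept only), a step checked on simulated data. No comparison was tested. A floor of 3 counts was 0.0940 to 0.125 CPM in single libraries, for counting error only.

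Gene lists (36) and members were chosen with earlier results of these data known. Named genes were the 20 highest protein-coding genes (ribosomal protein and mitochondrial genes apart), up to 6 highest members of each list, members with at most 3 counts in surface, factor and cytokine lists, the 12 largest and 12 smallest CVs among expressed protein-coding genes of at least 10 FPKM, the next 15 protein-coding genes on no list, and preset genes. AW112010, Adgre1, Adipoq, Aqp7, Calcrl, Cd247, Cd3d, Cd4, Clec9a, Cs, Eno2, Eomes, Foxp3, Gas5, Gm23419, Gm26377, Hk1, Hk2, Il12rb1, Il12rb2, Il2ra, Ldhb, Lep, Ly6g, Malat1, Msln, Ndufs1, Pax5, Pdk4, Plin5, Rora, S100a9, Slc2a1, Slc2a3, Tcrg-C2, Tcrg-C4, Tcrg-V4, Tcrg-V5, Tcrg-V7, Tigit, Tnf, Trav15n-1, Trbv14 and Trgv2 were chosen after their values were seen. Positions are from GENCODE M21, and shared exonic bases were taken without regard to strand. Not every gene the rule names is reported here. Of 282 genes located, 43 share exonic bases with another gene of at least 40 counts, among them Acadvl, Acsl5, Actg1, Cd52, Cfl1, Cox4i1, Cyp51, Dusp1, Elovl1, Ftl1, Gapdh, Hmgb1, Il27ra, Klrb1c, Mpc1, Nfkbib, Nr1d1, Srebf1, Tcrg-V4, Xcl1, mt-Atp6 and mt-Co3, and such levels are less certain. Alternatives were other thresholds, units, pseudocounts, normalizations and filters, and each library left out in turn.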

Additional observations from a re-analysis of the deposited data

Results flagged for a closer look

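Among the 239 expressed named genes, 12 (5.02%) had 1 library far from the other 3, by a gap divided by the range above Dixon's 95% critical value for 4 samples. Chance flags about 1 gene in 20, so this number is near what chance gives. Over all 6721 expressed genes of at least 10 FPKM, 358 (5.33%) passed the same limit.

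Replicate 4 stood apart for 4 of them. Hspa1b (ratio 0.953) and Gsn (0.875) were high there, with 8.15, 8.09, 9.01 and 27.7 FPKM and 10.3, 6.67, 22.5 and 133 FPKM. Cd27 (0.932) was high with 38.3, 38.5, 37.8 and 48.3 FPKM, and Tcrg-V6 (0.847) was low with 1293, 1280.5, 1283 and 1211 FPKM, although the gap was small against its level.

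Replicate 1 was high for Oaz1 (0.909), Aldoa (0.896), Atp5h (0.869) and Sh3bgrl3 (0.857). Summed FPKM was also highest in replicate 1, at 668934 against 648837, 645131 and 640496 in replicates 2, 3 and 4. The flags were taken in FPKM, so those with small gaps, such as Atp5h and Tcrg-V6, depend on that unit. Oaz1, a regulator of polyamine synthesis, had 2547, 2189, 2154 and 2189.7 FPKM, and Sh3bgrl3 had 2127, 1952, 1930.0 and 1923 FPKM. Aldoa had 754, 659, 656 and 666 FPKM, and Atp5h had 522, 494, 493 and 496 FPKM. Replicate 3 was high for Acat2 (0.907), with 9.46, 10.7, 23.1 and 10.7 FPKM. Replicate 2 was high for Il18r1 (0.907), with 50.5, 60.2, 50.4 and 49.5 FPKM, and low for Adat3 (0.842), which had 11.3, 11.1, 11.3 and 11.3 FPKM.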

How the results depend on the processing

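The number of expressed genes was 10326 and ran from 7629 (5 FPKM in all 4 libraries) to 11673 (mean of at least 1 FPKM), and from 10454 to 10575 with 1 library left out. The share of FPKM in the 100 highest genes, 29.3%, was 21.8% of counts when genes were ranked by CPM, 30.2% without mitochondrial and ribosomal protein genes, and 29.1% to 29.4% with 1 library left out. The common biological coefficient of variation, 0.289, was 0.763 with no count filter, 0.208 for genes of at least 5 CPM, and 0.282 to 0.308 with 1 library left out. The variable genes (CV over 50%), 458 in all, numbered 31 among genes of at least 5 FPKM in all libraries, 9276 with no filter, and 227 by an SD of log2(FPKM + 1) above 0.7. With 1 library left out they numbered 456 to 601. The lowest replicate correlation, 0.964, was 0.957 with a pseudocount of 0.1, 0.969 over all genes with a count, and 0.964 to 0.970 with 1 library left out. The filter on low values sets these counts, since low genes vary most. In TPM, which rescales every gene of a library alike, 224 of 277 named genes moved by more than 1 SD. Leaving out 1 library moved the means of 12 expressed named genes by over 1.5 times, those given above and Egfl7 (2.43 FPKM without replicate 1, against 4.09 FPKM with it). It also moved 31 of the 38 named genes that were not expressed, 16 of them without replicate 4, 7 without replicate 1, 6 without replicate 3 and 2 without replicate 2. The highest were Hbb-bt (16.4 FPKM without replicate 3, against 36.8 FPKM with it), Lyz2 (2.36 FPKM without replicate 4, against 18.7 FPKM) and Dcn (2.01 FPKM without replicate 4, against 13.4 FPKM). No paired analysis was possible because only 1 group was described. Depth limits genes of few reads, such as Il22 with 485 counts.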

Other observations

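Noncoding RNA made up a small but visible share of the adipose γδ T cell transcriptome. Of the 10326 expressed genes 907 were not protein-coding, among them 109 long intergenic RNAs and 466 pseudogenes, and 12 of the 100 highest genes were noncoding or receptor segments. Malat1, a nuclear long noncoding RNA found in most cells, had 2058, 2142, 1743 and 1974 FPKM and ranked 31. AW112010, a transcript known from interferon-exposed lymphocytes and macrophages of mice, had 503, 563, 501 and 426 FPKM. Gas5, the host transcript of small nucleolar RNAs, had 85.9, 92.2, 102 and 90.8 FPKM. Malat1 was lowest in replicate 3, AW112010 in replicate 4 and Gas5 in replicate 1.

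Some short features reached high FPKM from few reads. Gm26377, annotated as a microRNA, had 1176 ± 214 FPKM from only 4336 counts and shares 108 exonic bases with Eef1a1, and Gm23419, annotated likewise, had 906 ± 149 FPKM from 931 counts and shares 83 exonic bases with Actg1. Ranks among all genes include such features.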
